A study of Mus musculus with 12 samples.

Results

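The tripartite motif (TRIM) family was described in RNA-seq counts of mouse bone marrow-derived dendritic cells (DCs). Members were the genes whose symbol is Trim followed by a digit and that had at least 10 counts in every library. A total of 42 of 69 genes of that name met this rule, in a table of 55471 genes. Of the 27 others, 22 had a count of 0 in at least 1 library. Just inside the limit were Trim69, with a lowest count of 21, and Trim46, with 45. Just outside it were Trim34b and Trim72, each with a lowest count of 9. Trim66, Trim9 and Trim54 had lowest counts of 4, 5 and 1.

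TRIM proteins carry an N-terminal RING domain, B-box zinc fingers and a coiled coil, and most act as ubiquitin E3 ligases. The C-terminal domain, often a PRY-SPRY (B30.2) domain, mostly sets what the protein binds. Several members are induced by type I interferon and act on viral capsids or on the proteins that sense viral nucleic acid, whereas others regulate transcription, development or the cytoskeleton.

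The study compared DCs with and without a knockdown of Ppargc1b, which encodes the transcriptional co-activator PGC-1β, at rest and after the antiviral cytokine IFN-β. Bone marrow of adult female C57BL/6 mice was grown with GM-CSF. A retroviral vector delivered the hairpin RNA together with a human CD8 reporter, on which the cells were sorted. All 4 groups carried a hairpin: shControl cells one against firefly luciferase, shPpargc1b cells one against Ppargc1b, and each was left unstimulated or treated with IFN-β for 6 h. Each group had 3 libraries. The study names a default Ppargc1b hairpin for most of its experiments, and its RNA-seq text names no other. The sample titles do not name the hairpin. The sources used here do not say whether the libraries of a group came from separate mice or cultures. The p-values therefore measure only the spread between these libraries. GM-CSF cultures hold more than 1 kind of myeloid cell, and in bulk RNA fewer cells of a kind and less RNA per cell cannot be told apart.

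Library totals ran from 49.9 to 77.7 M counts (M, mega). Ppargc1b, the targeted gene, was at 33.3 to 36.7 CPM (counts per M counts, with TMM scaling) in unstimulated shControl libraries and at 18.6 to 20.3 in unstimulated shPpargc1b libraries, so the knockdown was partial. With IFN-β it was at 23.6 to 31.4 and 15.5 to 20.9 CPM. The hairpin groups did not overlap in either state. Summed over 8 dendritic markers the level was 4564 to 6491 CPM, and over 6 lymphocyte markers at most 1.03 CPM. Macrophage markers (8 genes) summed to 2284 to 2418 CPM in unstimulated shControl and 2030 to 2087 in unstimulated shPpargc1b cells. With IFN-β these sums were 2834 to 3046 and 2406 to 2597 CPM. Neutrophil markers (8 genes) summed to 41.0 to 95.9 and 90.0 to 157.8 CPM in the same unstimulated groups, and to 39.1 to 100.9 and 87.3 to 164.3 CPM with IFN-β. Of the 8 dendritic markers 4 were higher with the knockdown in each state, and of the 8 macrophage markers 3 were lower at rest and 4 after IFN-β. Mast cell or basophil markers (5 genes) summed to 8.50 to 16.1 CPM in unstimulated shControl and 21.9 to 24.8 in unstimulated shPpargc1b cells, and to 7.01 to 13.7 and 12.7 to 20.5 CPM with IFN-β. Of these, Kit and Gata2 were higher with the knockdown in each state. Neutrophil markers had 1 of 8 higher in each state. Plasmacytoid markers (4 genes), nearly all from Tcf4, summed to 86.1 to 110.8 CPM in unstimulated shControl and 133.3 to 156.9 in unstimulated shPpargc1b cells. With IFN-β these sums were 192.9 to 211.6 and 210.1 to 217.3 CPM, higher than at rest in each hairpin group. Tcf4 was higher with the knockdown at rest and did not pass the test after IFN-β. Erythroid markers (4 genes) summed to at most 0.128 CPM. The part of these cells in the results was not tested.

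Sequence around the transcription start is shown for the 6 induced members that carried the core of the interferon-stimulated response element (ISRE), so that paralogues can be compared. The ISRE core searched was GAAANNGAAA on either strand, in the 250 bases before and 50 bases after a start (RefSeq promoters, build GRCm38.p6). Promoters were given for 32 members, and 9 of them (28.1%) held the core, against 3.99% of 27025 genes. Capitals mark the core, which reads TTTCNNTTTC where it lies on the opposite strand. Each sequence is on the strand of its gene, which is the minus strand except for Trim34a.
Trim21, chr7:102565460-102565499: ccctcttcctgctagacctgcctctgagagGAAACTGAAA
Trim34a, chr7:104244437-104244476: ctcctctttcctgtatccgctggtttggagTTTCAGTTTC
Trim12a, chr7:104315476-104315515: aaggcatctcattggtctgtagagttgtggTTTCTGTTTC
Trim12c, chr7:104353350-104353408: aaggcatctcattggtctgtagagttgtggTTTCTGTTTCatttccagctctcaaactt
Trim30a, chr7:104465194-104465259: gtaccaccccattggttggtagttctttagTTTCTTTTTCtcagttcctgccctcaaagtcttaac
Trim30d, chr7:104507851-104507920: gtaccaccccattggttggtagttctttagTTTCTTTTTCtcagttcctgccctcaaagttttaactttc
The first 40 bases were identical between Trim12a and Trim12c, and between Trim30a and Trim30d. A further core overlapped that of Trim21, and Trim5 carried the same 40 bases as Trim12a. The core was also found at Trim26 and Trim2, and not in the windows given for Trim30b or Trim30c. The Trim30b window (104358597 to 104358896) lay inside the annotated gene, whose 5' end is at 104369884, so that end was not searched. A match describes letters in a window and does not show binding.

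In shControl cells treated with IFN-β 16 of the 42 members rose (38.1%) and 11 fell (26.2%), against 23.7% and 24.6% of all 18228 genes tested (edgeR quasi-likelihood test, Benjamini-Hochberg adjusted p under 0.05). In shPpargc1b cells 15 rose (35.7%) and 10 fell (23.8%), against 21.4% and 21.2% of genes. The share of members that fell was near the background in both. The median member changed by 0.04 and 0.01 on the log2 scale in the 2 hairpin groups, beside -0.03 and -0.02 for all genes. These shares of higher and lower members depended on the scaling: with library totals in place of TMM factors the median gene moved to -0.27 and -0.22, and 14 members were higher and 23 lower in shControl, and 14 higher and 21 lower in shPpargc1b cells. Small decreases are therefore relative to the TMM scale. No share of all genes called with library totals is given here to set beside those member counts.

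Members were called induced or reduced where they passed the test with a log2 fold change of at least 1 in the same direction in both hairpin groups. The induced class held 12 members (28.6%), against 5.01% of all genes, and the reduced class held Trim47, against 1.32% of genes. Members were near-constant where the 95% interval of the log2 fold change lay within 0.5 of 0 in both groups. This held for 16 members (38.1%), against 34.6% of genes, a share near the background. The other 13 were intermediate. Closest to the limit were Trim56 (1.15 and 1.02 on the log2 scale) inside and Trim26 (1.09 and 0.92) outside. With library totals the induced class held 8 members, since Trim14, Trim25, Trim56 and Trim12c fell short of a change of 1 in at least 1 hairpin group (lowest values 0.90, 0.99, 0.82 and 0.99). Trim37 (-1.13 and -1.06) then joined Trim47 in the reduced class. Trim34b and Trim72 missed the count limit through unstimulated libraries and are not in the classes. Trim72 rose 4.7-fold (95% interval 3.08 to 7.24) in shControl and 3.41-fold (2.35 to 4.95) in shPpargc1b cells. Exons on the opposite strand overlapped 27.6% of its exonic length.

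**Figure D1:**
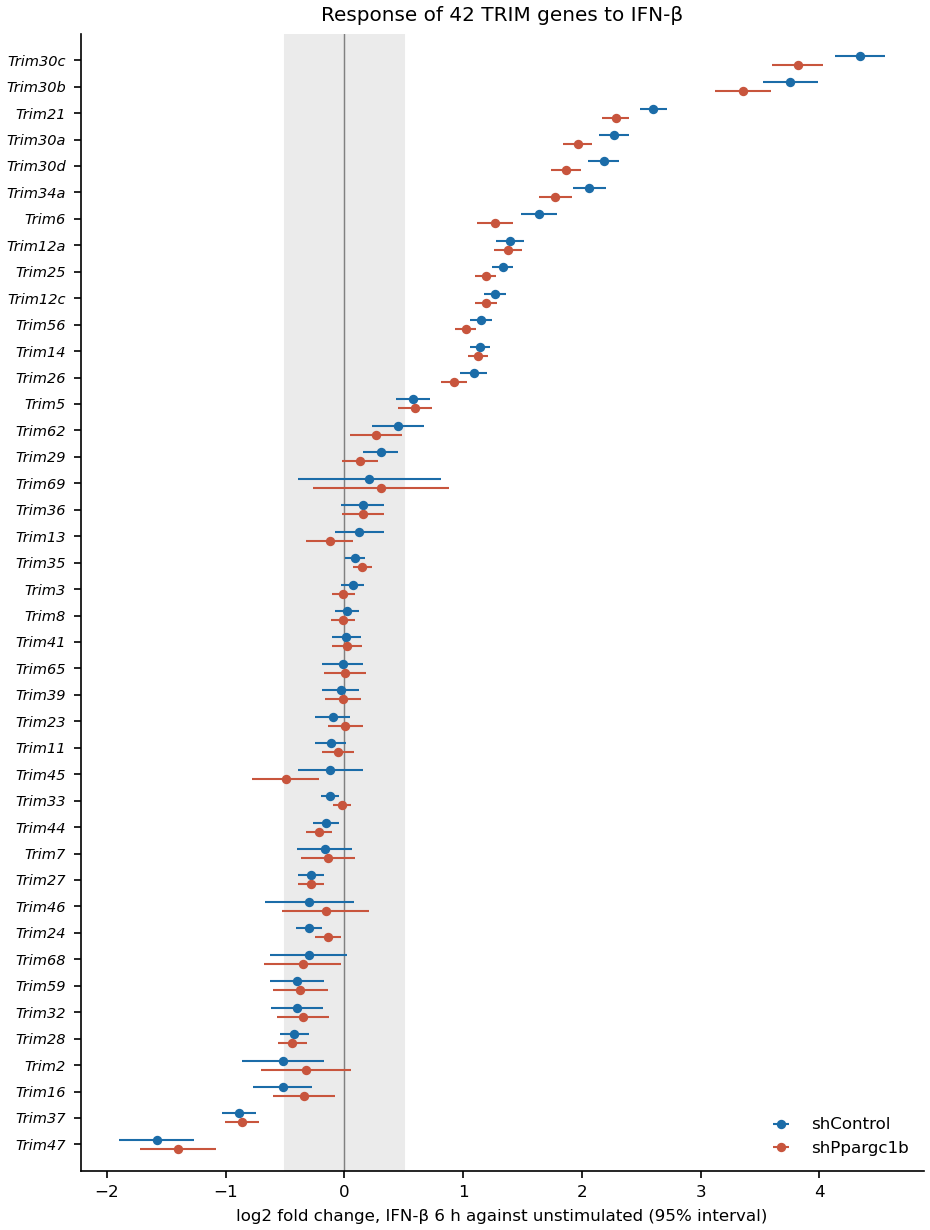
Log2 fold change 6 h after IFN-β for the 42 TRIM genes, ordered by the change in shControl cells; points are edgeR estimates from 3 libraries a group and lines their 95% intervals, and the grey band marks changes within 0.5. Trim30c and Trim30b lie highest (4.34 and 3.76 in shControl) and Trim47 lowest (-1.58).

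Trim30c (chromosome 7, 104382065 to 104400837, minus strand) had the largest change of the family. It was at 4.10, 4.90 and 4.01 CPM in unstimulated shControl libraries and at 87.2, 90.0 and 87.3 CPM after IFN-β, a 20.3-fold rise (95% interval 17.5 to 23.6; edgeR adjusted p = 1.36e-14). In shPpargc1b libraries it went from 3.45, 3.66 and 4.96 to 57.4, 55.8 and 58.2 CPM, a 14.1-fold rise (12.2 to 16.3; edgeR adjusted p = 7.61e-14). No treated library came near an untreated one, and every treated shPpargc1b library lay below every treated shControl library. Trim30b, its neighbour, rose 13.5-fold (11.5 to 15.9) in shControl and 10.2-fold (8.71 to 12.1) in shPpargc1b cells. Its treated libraries were at 75.3, 82.1 and 79.6 CPM and at 48.4, 53.4 and 56.8 CPM, again without overlap.

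Trim30a encodes a protein known to restrain NF-κB signalling through TAB2 and TAB3. It was the most abundant member per kb of exon in every group, with a mean of 38.2 CPM per kb in unstimulated and 184.2 in treated shControl cells. Its libraries were at 153.7, 167.9 and 148.8 CPM in unstimulated and 730.1, 777.6 and 764.2 CPM in treated shControl cells. In shPpargc1b cells they were at 164.4, 177.6 and 189.6 and at 695.0, 663.3 and 715.6 CPM. The rise was 4.83-fold (4.43 to 5.26) and 3.90-fold (3.58 to 4.25). Trim30a took 11.5% of the summed CPM of the members in unstimulated and 24.3% in treated shControl cells. Trim30d rose 4.54-fold (4.16 to 4.97) and 3.65-fold (3.34 to 3.99). The coding sequences of Trim30a and Trim30d were 90.2% identical, and 4.41% of the 100-base words of Trim30a also occurred in Trim30d. No such word of Trim30b or Trim30c was shared.

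Trim21, the cytosolic antibody receptor that directs antibody-coated virus to the proteasome, lies apart from that cluster on chromosome 7 (102557921 to 102565486, minus strand). It was at 15.8, 17.7 and 16.2 CPM in unstimulated shControl cells and at 99.2, 101.8 and 100.1 CPM after IFN-β. In shPpargc1b libraries it went from 15.6, 17.01 and 16.6 to 80.8, 76.5 and 82.9 CPM. The unstimulated groups overlapped and the treated ones did not. The rise was 6.07-fold (5.61 to 6.57) and 4.87-fold (4.51 to 5.27).

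Trim25, which ubiquitinates the RNA sensor RIG-I (Ddx58), was already abundant at rest. Its libraries were at 205.7, 215.7 and 193.6 CPM in unstimulated and 508.8, 526.2 and 514.1 CPM in treated shControl cells. In shPpargc1b cells they were at 203.2, 192.6 and 197.9 and at 451.4, 454.0 and 449.9 CPM. The rise was 2.52-fold (2.37 to 2.68) and 2.28-fold (2.15 to 2.43). Trim56, a ligase known for acting on the cGAS-STING pathway, went from 63.9, 63.6 and 58.3 to 135.7, 138.2 and 137.6 CPM in shControl cells. In shPpargc1b cells it went from 53.1, 51.8 and 54.8 to 107.7, 111.5 and 104.8 CPM. Trim56 was lower in shPpargc1b cells both at rest and after IFN-β, without overlap of libraries. Trim14, a RING-less adaptor of the mitochondrial protein MAVS, rose 2.20-fold (2.08 to 2.34) and 2.18-fold (2.05 to 2.31). Exons on the opposite strand, mainly of Nans, overlapped 38.04% of its exonic length, and the strand used in counting was not given in the sources used here, so reads of the pair may not be separated.

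The remaining induced members lay in the chromosome 7 cluster. Trim34a rose 4.18-fold in shControl and 3.43-fold in shPpargc1b cells, but 39.0% of its 100-base words also occurred elsewhere, mainly in Trim34b and in an antisense gene, so its counts are uncertain. Trim12a rose 2.63-fold (2.42 to 2.85) and 2.60-fold (2.40 to 2.82), and Trim12c 2.41-fold (2.25 to 2.57) and 2.29-fold (2.14 to 2.44). Both are mouse relatives of the retroviral restriction factor TRIM5. Trim6, which makes unanchored ubiquitin chains that activate IKKε, went from 6.79, 6.995 and 5.89 to 20.4, 20.2 and 20.7 CPM in shControl cells. In shPpargc1b cells it started higher, at 8.47, 8.31 and 8.48 CPM, and ended at 19.0, 21.0 and 20.8 CPM. The treated libraries of the hairpin groups overlapped.

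**Figure D2:**
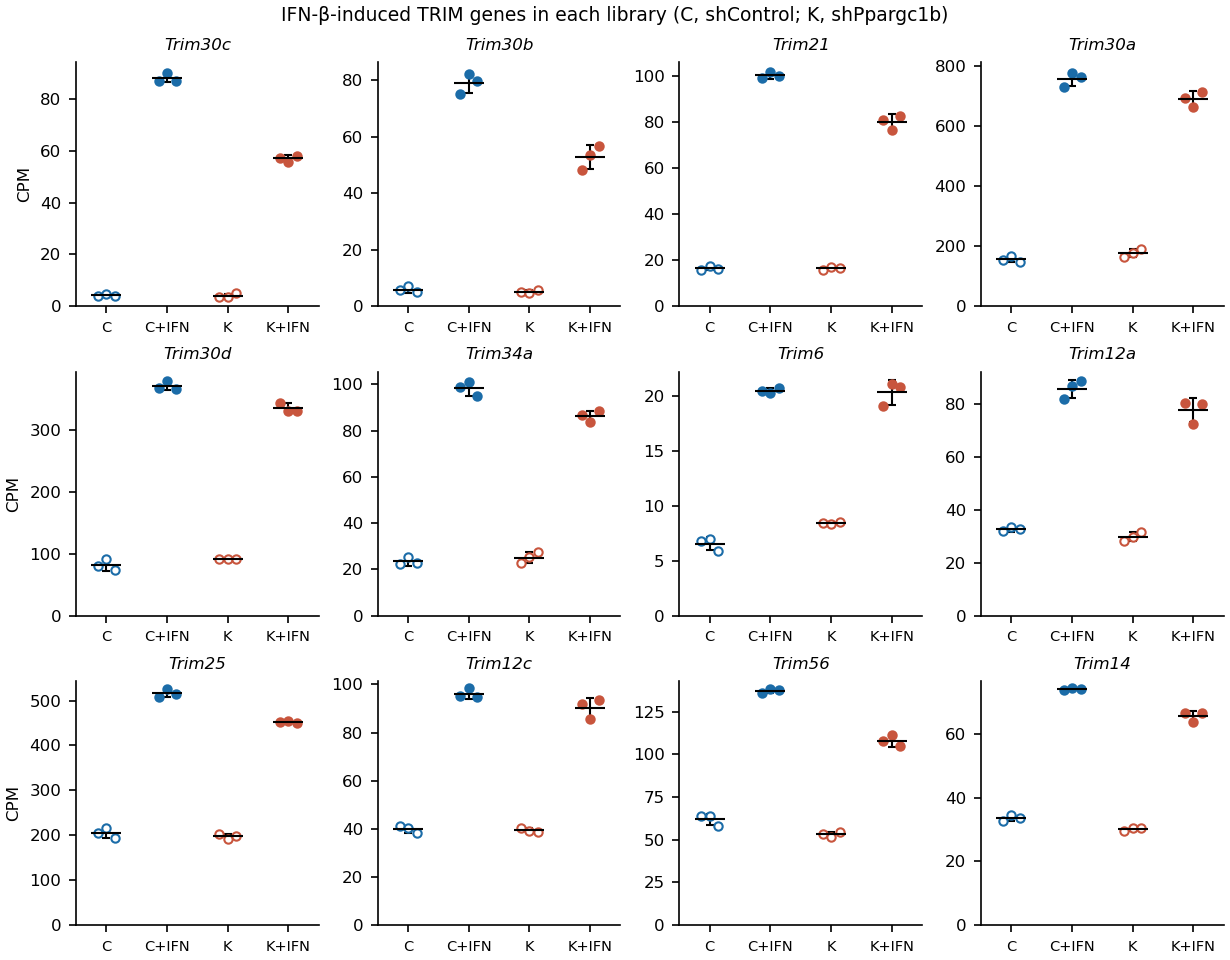
CPM (TMM-scaled) of the 12 induced TRIM genes in each library; open points are unstimulated and filled points IFN-β-treated libraries, black lines the mean and bars the SD (n = 3). Treated libraries lie above untreated ones in every panel, and for Trim30c the treated shPpargc1b libraries (55.8 to 58.2 CPM) lie below the treated shControl libraries (87.2 to 90.0 CPM).

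The cluster from Trim6 to Trim30d covers 289.1 kb of chromosome 7 (104218793 to 104507849). It holds 18 annotated genes, of which 14 were tested and 10 belong to the family. Of the 9 members there, 8 were induced and Trim5 was intermediate, while 4 of the 33 members elsewhere were induced. Trim5 rose from 13.5, 13.4 and 12.3 to 19.4, 20.2 and 18.9 CPM in shControl cells, 0.58 on the log2 scale, and by 0.60 in shPpargc1b cells. Its coding sequence was 96.6% identical to that of Trim12c, and 11.7% of its 100-base words occurred elsewhere. Trim34b, below the count limit, had log2 fold changes of 2.17 and 2.12. Of the 4 other tested genes, Gm15133, Gm45471 and Gm16464 rose and Gm47248 did not pass the test.

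**Figure D3:**
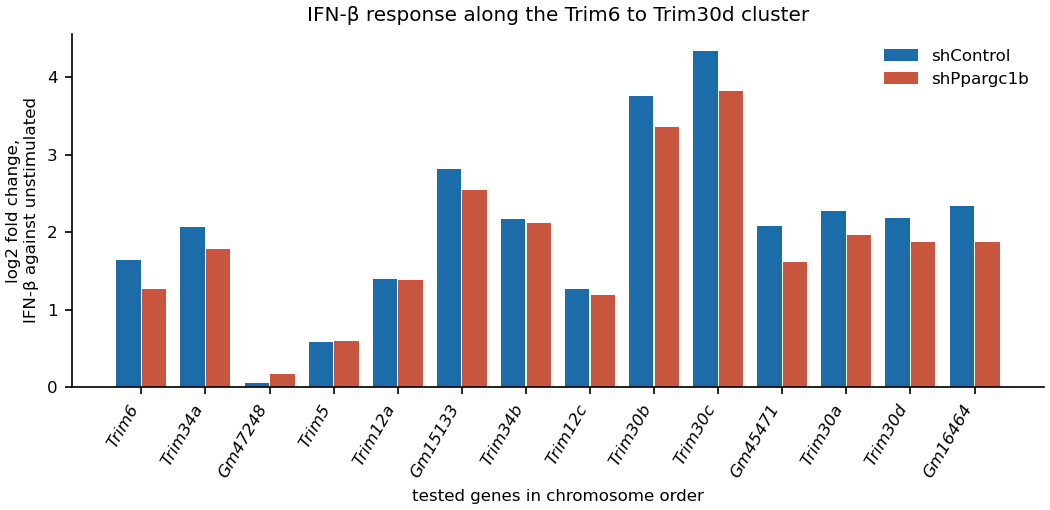
Log2 fold change after IFN-β, as bars from 0, for the 14 tested genes of the Trim6 to Trim30d cluster in chromosome order, in shControl and shPpargc1b cells. Bars reach 4.34 and 3.82 at Trim30c, and the lowest protein-coding gene is Trim5 at 0.58 and 0.60.

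C-terminal domains were taken from a list by gene, with 1 class for each, and were not read from sequence. By this list 11 of the 12 induced members were of the PRY-SPRY class, as were 25 of the 42 members. Trim56 was the exception, listed with no such domain. The longest coding sequences of Trim30b and Trim12a had 612 and 894 bases, against 1491 for Trim30a and 1494 for Trim12c. Whether these shorter sequences encode the domain was not checked. Of the 25 PRY-SPRY members, 7 were near-constant, 6 intermediate and 1, Trim47, reduced. None of the 3 members with a PHD finger and bromodomain was induced, nor any of the 3 with NHL repeats. The ISRE core was found at 6 of 11 induced members with a promoter sequence, at 3 of 12 intermediate members, and at 0 of 8 near-constant members. The induced members without it in the window were Trim6, Trim25, Trim30b, Trim30c and Trim56, and Trim14 had no promoter sequence in the set used. For Trim30b the window did not cover the annotated 5' end (above).

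With TMM scaling Trim47 was the only member reduced by a log2 fold change of at least 1 in both groups. It went from 4.13, 4.18 and 3.92 to 1.14, 1.49 and 1.42 CPM in shControl cells, and from 3.43, 4.07 and 3.82 to 1.58, 1.58 and 1.13 CPM in shPpargc1b cells. The log2 fold changes were -1.58 ± 0.15 (SE) and -1.40 ± 0.15 and the libraries did not overlap. Trim37, a centrosomal and peroxisomal ligase, fell from 16.8, 15.9 and 17.4 to 9.16, 8.79 and 9.10 CPM in shControl cells. Its log2 fold change was -0.89 there and -0.86 in shPpargc1b cells. Trim26, which acts on IRF3, rose by 1.09 and 0.92. Trim28 (KAP1), the corepressor recruited by KRAB zinc finger proteins, fell by 0.42 and 0.44 on the log2 scale, and Trim32, an NHL ligase mutated in a muscular dystrophy, by 0.40 and 0.35. For Trim32 in shPpargc1b cells the adjusted p was 0.0613 without shPpargc1b IFN-β replicate 1. Trim62, a ligase of the adaptor CARD9, rose by 0.45 in shControl cells, while its 0.27 in shPpargc1b cells did not pass the test (edgeR adjusted p = 0.0521).

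Among near-constant members Trim8, a regulator of cytokine signalling, had the highest length-scaled level, 19.7 CPM per kb in unstimulated and 19.9 in treated shControl cells. Its libraries ran from 67.8 to 76.2 CPM in unstimulated and from 71.4 to 76.0 CPM in treated shControl cells, which overlap. The intervals that define the class covered small changes too: Trim27 fell by 0.28 in both hairpin groups, Trim24 by 0.30 and 0.14, and Trim44 by 0.16 and 0.22 on the log2 scale. The call of Trim24 in shPpargc1b cells was lost without any 1 of shControl IFN-β replicates 1, 2 and 3, shControl unstimulated replicate 2, shPpargc1b unstimulated replicates 1 and 2, and shPpargc1b IFN-β replicates 1 and 3 (edgeR adjusted p from 0.0505 to 0.146). That of Trim44 in shControl cells was lost without any 1 treated shControl library (edgeR adjusted p from 0.0523 to 0.109). Trim33, a Smad-binding relative of Trim24, changed by -0.12 in shControl cells, with adjusted p of 0.0829 and 0.0846 without shControl IFN-β replicates 1 and 2. Trim41 changed by 0.02 in both groups and Trim3, an NHL ligase, by 0.07 and -0.01, and neither passed the test. With library totals the shControl values of Trim8, Trim41 and Trim3 were -0.22, -0.22 and -0.17 and passed it.

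**Figure D4:**
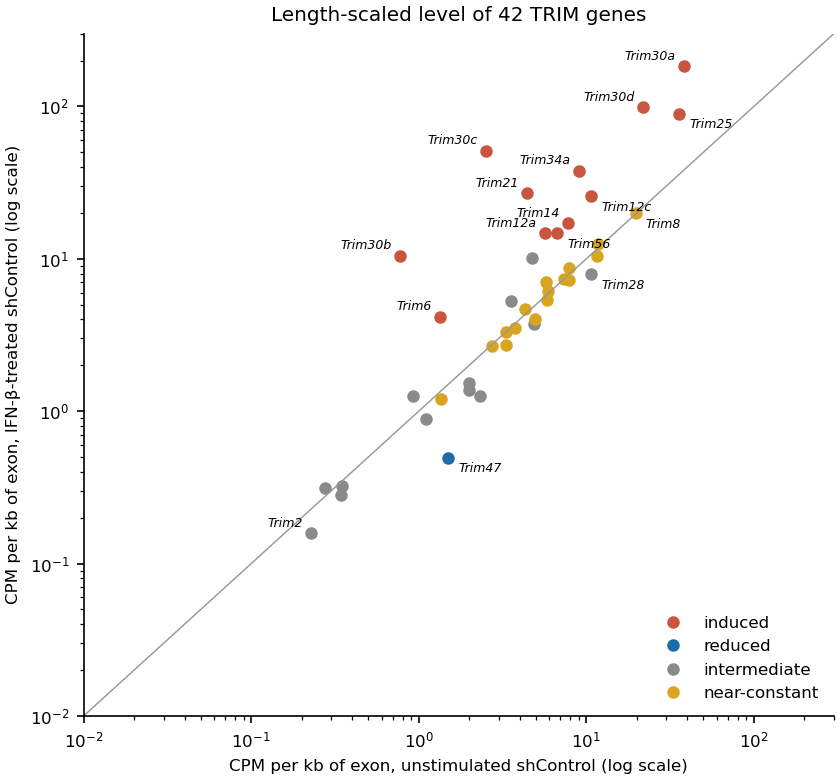
Mean CPM per kb of exon (n = 3) of each TRIM gene in treated against unstimulated shControl cells, on log axes, coloured by class; the line marks equal levels. Trim30a lies highest (38.2 and 184.2), near-constant genes such as Trim8 (19.7 and 19.9) lie along the line, and Trim47 (1.49 and 0.49) lies below it.

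The knockdown of Ppargc1b moved fewer members. In unstimulated cells 9 members were higher and 4 lower in shPpargc1b than in shControl cells, against 12.4% and 11.1% of all genes. After IFN-β 5 were higher and 12 lower, against 11.5% and 12.7% of genes. Without shControl unstimulated replicate 1 the unstimulated count was 8 rather than 13, and without shPpargc1b IFN-β replicate 1 the treated count was 11 rather than 17. The median member differed by -0.02 at rest and -0.09 after IFN-β on the log2 scale, and the median gene by -0.0049 and -0.0108. The 2 knockdown contrasts use different libraries, and the classes below were set from the same libraries through the IFN-β contrasts.

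Trim2 had the largest knockdown difference of the members in both states. This NHL ligase, known from neurons, was at 4.93, 4.39 and 4.13 CPM in unstimulated shControl and 2.44, 1.68 and 2.21 CPM in unstimulated shPpargc1b libraries. With IFN-β these were 3.17, 3.12 and 3.11 and 2.13, 1.63 and 1.29 CPM. The hairpin groups did not overlap in either state, and the level in shPpargc1b cells was 46.9% and 53.6% of that in shControl cells (edgeR adjusted p = 0.000162 and 0.00139). Trim16, a RING-less member linked to the handling of damaged lysosomes, was at 9.66, 7.83 and 9.81 against 5.50, 4.51 and 5.70 CPM at rest. After IFN-β it was at 6.26, 5.93 and 6.78 against 3.97, 3.82 and 4.60 CPM. Its level in shPpargc1b cells was 57.6% and 65.1% of that in shControl cells (edgeR adjusted p = 0.000119 and 0.00153), with no overlap in either state.

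Trim35 was higher with the knockdown in both states, without overlap. It was at 52.5, 55.6 and 55.2 against 68.4, 69.5 and 70.8 CPM at rest, and at 58.4, 56.7 and 58.6 against 76.9, 77.5 and 77.1 CPM after IFN-β. The log2 differences were 0.35 ± 0.04 (SE) and 0.41 ± 0.04. Trim36, a microtubule-associated member, was higher by 0.37 in both states and Trim7 by 0.41 and 0.44. Trim28 was higher by 0.19 and 0.18, but the call at rest was lost without shControl unstimulated replicate 1 or shPpargc1b unstimulated replicate 2 or 3 (edgeR adjusted p from 0.0557 to 0.1). The call after IFN-β was lost without shControl IFN-β replicate 2 or 3 or any 1 treated shPpargc1b library (edgeR adjusted p from 0.0682 to 0.209). Trim44 was higher by 0.16 at rest, a call lost without any 1 unstimulated shControl library or shPpargc1b unstimulated replicate 2 or 3 (edgeR adjusted p from 0.0613 to 0.184).

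Among the 12 induced members, 3 were at rest higher in shPpargc1b cells (Trim6, Trim30a and Trim30d) and 2 lower (Trim14 and Trim56). After IFN-β all 12 estimates lay below 0, from -0.63 to -0.01, and 7 passed the test: Trim14, Trim21, Trim25, Trim30b, Trim30c, Trim34a and Trim56. In treated cells Trim30c was at 64.8% and Trim30b at 66.9% of the shControl level (edgeR adjusted p = 4.46e-05 and 0.000293), Trim21 at 79.8% and Trim25 at 87.5%. Trim6 differed by 0.36 at rest (edgeR adjusted p = 0.00212) and by -0.01 after IFN-β. Trim30a differed by 0.18 and Trim30d by 0.17 at rest, close to the threshold (edgeR adjusted p = 0.0333 and 0.0498). The call of Trim30a was lost without shControl unstimulated replicate 1 or 3 or shPpargc1b unstimulated replicate 2 or 3 (edgeR adjusted p from 0.0800 to 0.150). That of Trim30d was lost without any 1 library except shControl unstimulated replicate 2 and shPpargc1b IFN-β replicate 2 (edgeR adjusted p from 0.0537 to 0.223). The adjusted p of Trim34a after IFN-β was 0.0371, and the call was lost without replicate 1 or 3 of the unstimulated shControl group, replicate 1 or 2 of either treated group, or replicate 2 of the unstimulated shPpargc1b group (edgeR adjusted p from 0.0556 to 0.0858). For Trim14 at rest it was 0.00989, and 0.0545 without shControl unstimulated replicate 2. With all genes of at least 1 count in the fit, the calls of Trim14 at rest and after IFN-β were lost (edgeR adjusted p = 0.188 and 0.0542). The summed macrophage markers were also lower in shPpargc1b than in shControl cells after IFN-β (above), and their part in these differences was not tested.

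**Figure D5:**
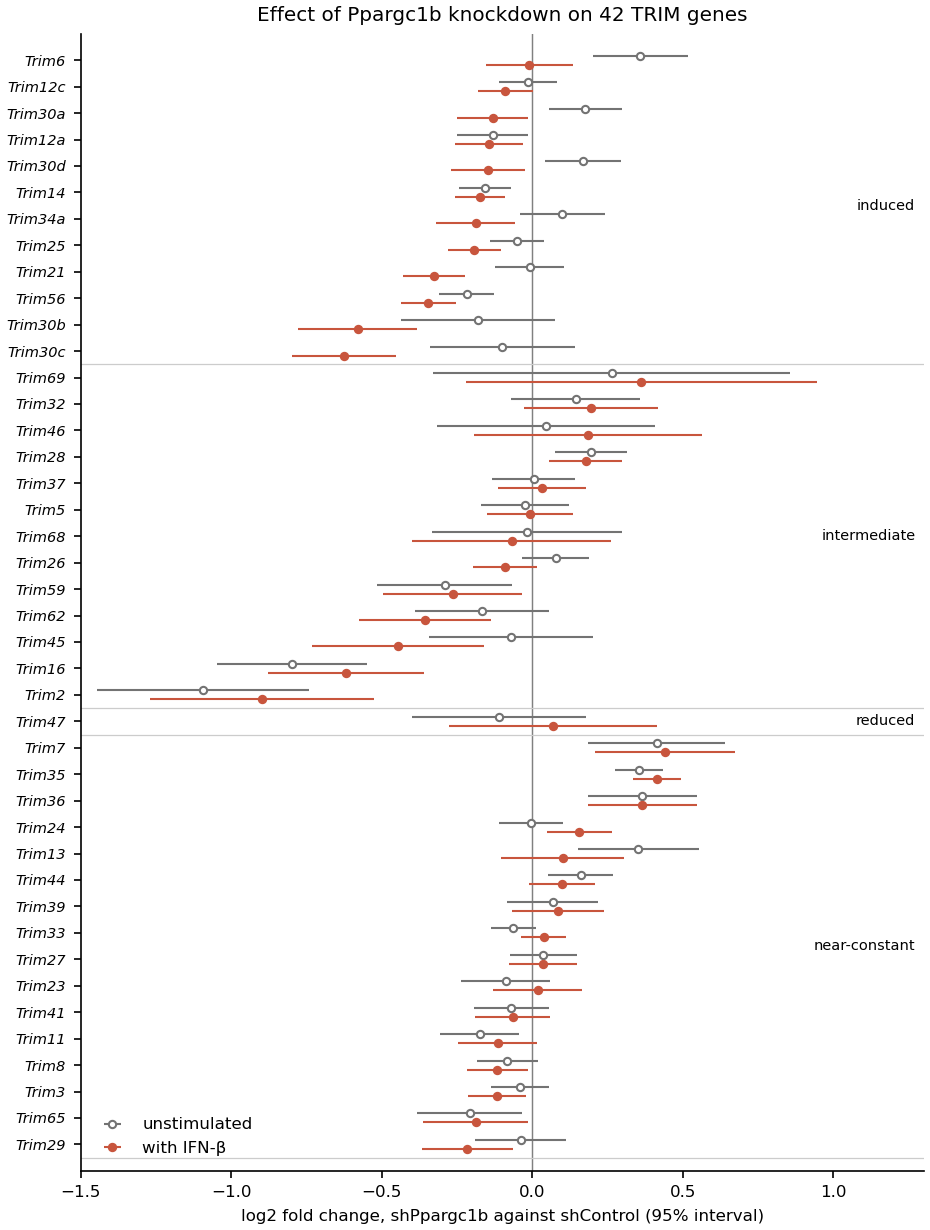
Log2 difference of shPpargc1b from shControl for the 42 TRIM genes, unstimulated (open) and after IFN-β (filled), grouped by class of IFN-β response; points are edgeR estimates from 3 libraries a group and lines 95% intervals. All 12 induced genes have filled points below 0 (-0.63 to -0.01), while Trim2 and Trim16 lie lowest in both states among the other genes.

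Whether the response to IFN-β itself differed between hairpin groups was tested as an interaction. The test of the difference between the 2 knockdown contrasts is the same. No member passed by edgeR, against 0.0603% of genes higher and 0.669% lower. At an unadjusted p under 0.05 there were 10 members, 9 of them below 0, while 10.5% of all genes met that limit. All 12 induced members had interaction estimates below 0, from -0.53 to -0.01. DESeq2 called 5 members lower (11.9%) and 0 higher, against 2.01% and 0.466% of genes: Trim6, Trim21, Trim30a, Trim30c and Trim30d. With all genes of at least 1 count in the edgeR fit 6 members were lower and 0 higher, against 0.962% and 0.235% of genes. With a block for the runs of library codes, which the labels do not call batches, edgeR called Trim21, Trim30a and Trim30d lower (adjusted p = 0.0253, 0.0311 and 0.0288) and 0 higher, against 1.86% and 0.472% of genes. For Trim21 the interaction was -0.32 ± 0.07 (SE) with an edgeR adjusted p of 0.0626, and 0.0367 without shControl unstimulated replicate 2. For Trim30d it was -0.31 ± 0.08 (SE) with an edgeR adjusted p of 0.104, and 0.0121 without the same library.

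Genes that work with TRIM proteins were listed by role, and their counts stand beside 23.7% of all genes higher with IFN-β in shControl cells and 12.7% lower with the knockdown after IFN-β. Of 8 sensors and adaptors, 7 rose with IFN-β in both hairpin groups, and 5 were lower in treated shPpargc1b than in treated shControl cells. Ddx58, the target of Trim25, rose from a mean of 135.0 to 863.8 CPM in shControl cells and from 152.2 to 752.5 CPM in shPpargc1b cells. Of 8 kinases and NF-κB adaptors, 6 rose in shControl and 5 in shPpargc1b cells, and 2 fell in each. Ikbke, which encodes the kinase IKKε, rose by 0.83 and 0.68 on the log2 scale. Of 5 transcription factors, 4 rose and 1, Irf3, fell in both groups. Of 7 E2 enzymes and ubiquitin-like modifiers, 5 rose in both, with Isg15 highest at 4.96 and 4.34 on the log2 scale. Of 3 partners of KRAB repression with Trim28, Setdb1 and Cbx5 fell and Morc3 rose in both groups. After IFN-β 2 of the kinases and adaptors and 2 of the KRAB partners were lower with the knockdown, Irf8 was higher and no E2 enzyme or modifier passed the test. In the interaction Irf7, Ube2l6 and Isg15 were lower (edgeR adjusted p = 0.0244, 0.0432 and 0.0489) and no other gene of these lists passed. At rest each of these genes was higher with the knockdown, by 0.59, 0.28 and 0.48 on the log2 scale (edgeR adjusted p = 0.000397, 0.000478 and 0.00336). After IFN-β they differed by -0.12, -0.03 and -0.14 and did not pass the test. Among TRIM proteins named otherwise, Pml, Mid1 and Mefv rose in both groups, and Mid2, at under 0.2 CPM, did not pass the test.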

How the data were processed

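The authors trimmed adapters (Trim Galore 0.6.0 per the labels), mapped read pairs to mm10 with STAR (2.7.8a per the submitters' processing notes; the study's methods name another version) and counted them by gene (GENCODE). The deposited values were raw counts, not normalized and not pooled. The gene counting mode of STAR leaves out pairs that map to more than 1 place or gene. Ribosomal RNA was depleted. No column of other samples' values was used (0 such columns).

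Tests were run in edgeR 4.0.16 under R 4.3.3: filterByExpr (minimum count 10, minimum total 15, leaving 18228 genes), TMM factors and quasi-likelihood F-tests on 12 libraries with 1 mean per group, adjusted by Benjamini-Hochberg over all genes tested. The code was tested on simulated data. Library totals of 49.9 to 77.7 M counts set the counting precision. Groups came from the labels. DESeq2 1.42.0, other scalings, filters, a block for library codes, fits of the 2 groups compared and leaving out each library were alternatives. CPM per kb used the exonic length in GENCODE M21 (GRCm38). Shared 100-base words were counted between annotated transcripts.

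Members and lists were chosen with earlier results of these data known. Genes named were the induced and reduced members, members past 0.5 on the log2 scale in a knockdown contrast, the 8 near-constant members with the highest CPM, the 8 intermediate members with the largest change, and 12 members with known roles. Other genes were named where a count was 5 or fewer or they were listed partners. Genes of that name below the count limit were described but not counted.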

Additional observations from a re-analysis of the deposited data

How the results depend on the processing

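The labels give no replicate numbers, so libraries were not paired by replicate. The library codes formed 3 runs of 4 with 1 library of each group, which the labels do not call batches, and a block for these runs was fitted: it gave 28 called members for IFN-β in each hairpin group, 15 and 20 for the knockdown at rest and after IFN-β, and 3 for the interaction. Leaving out each library in turn gave 25 to 29 called members for IFN-β in shControl, 23 to 26 for IFN-β in shPpargc1b, 8 to 15 for the knockdown at rest, 11 to 17 for the knockdown after IFN-β and 0 to 2 for the interaction, beside 27, 25, 13, 17 and 0 in the reported fit. The induced and reduced members numbered 13 in each of these fits and the near-constant members 15 to 16. The interaction had 6 called members with all genes of at least 1 count and 5 by DESeq2. For the IFN-β and knockdown counts under these alternatives no share of all genes is given. A limit of 0.3 on the interval left 9 near-constant members. With library totals, where the median gene was at -0.27 and -0.22 in log2 units, the sign of some IFN-β changes turned. Among named members that passed the test in either fit these were, in shControl cells, Trim8 (-0.22), Trim35 (-0.15), Trim3 (-0.17) and Trim41 (-0.22). In shPpargc1b cells they were Trim35 (-0.054) and Trim41 (-0.18). Trim36 turned in both groups (-0.08 and -0.05) and passed in neither fit. The sign also turned for Trim13 and Trim69 in shControl and for Trim23, Trim29 and Trim65 in shPpargc1b cells. Of the values of named members under the alternatives, 2536 stayed on their side of the threshold, among them uncalled values that changed sign. Another 82 no longer passed it, 46 came to pass it and 6 reversed with a call in either fit. A count limit by filterByExpr gave 47 rather than 42 members. Depth limits chiefly the members under 5 CPM, such as Trim69 and Trim46, whose intervals were too wide for either class.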
